A study of Arabidopsis thaliana with 18 samples.

Results

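EXLA3 (AT3G45960) and EXPA8 (AT2G40610) are 2 expansin superfamily genes of Arabidopsis thaliana, out of 13356 genes that have a singly named probe set on the array. They were chosen by their measured change on phosphate starvation, which went in opposite directions, so their values in that comparison are given as a description without a test. Each is read by 1 probe set. Signal was measured on 18 arrays of seedlings aged 7 days. The 6 groups of 3 biological replicates were wild type (WT, Col-0) and the spx1 spx2 mutant, each in complete medium, in medium lacking inorganic phosphate (Pi), and after transfer from Pi-lacking to complete medium for 4 h (resupplied). The mutant carries mutations in both SPX1 and SPX2, with alleles not stated in the labels. Neither gene is named in the probe set table used here, so the genotype labels were not checked against their signal. The labels call the replicates biological without saying how plants were grown or pooled. The p-values therefore weigh differences in means against the spread between these samples only.

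Expansins are secreted proteins that loosen the plant cell wall at acid pH, without cutting its polymers, and so allow cells to enlarge. EXPA8 belongs to the alpha-expansins, the class for which wall loosening was first shown. EXLA3 belongs to the expansin-like A proteins, which share the domain layout of expansins but for which wall loosening has not been shown. SPX1 and SPX2 are nuclear proteins that bind the transcription factor PHR1 when Pi is ample and hold back its starvation genes. Starved seedlings change where they grow, with shorter primary roots, more lateral roots and longer root hairs, and wall proteins are among the genes that change with it.

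Values are RMA signals on the log2 scale, so a difference of 1 is a 2-fold change. Signals of different probe sets cannot be ranked against each other, because probes differ in how strongly they bind. The residual standard deviation of the median probe set was 0.162, and the number of arrays limits the precision. A spike-in control (dap) set 3 arrays apart, at 7.40 to 7.49 against 9.56 to 10.77 in the other 15. The 3 were WT complete replicate 3, mutant complete replicate 2 and mutant without Pi replicate 1. Each came from a different group, so no comparison within them was possible. Within those 15, the lowest dap signals were on the resupplied WT arrays, at 9.56 to 9.75 against 10.18 to 10.77. The difference between the 3 prime and 5 prime probes of ubiquitin, a measure of RNA quality, also moved with the medium. It ran from 1.24 to 1.45 on the complete-medium arrays, from 0.96 to 1.09 on the starved and from 1.101 to 1.216 on the resupplied. The part of these controls in the results below was not tested.

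In WT, EXLA3 signal was low in complete medium, with 5.86, 5.91 and 6.37 on the 3 arrays. Without Pi it read 9.72, 9.53 and 9.94. After 4 h of resupply it was still 8.99, 8.77 and 8.76. The 3 WT groups did not overlap, and the resupplied arrays lay much nearer to the starved than to the complete ones. In the mutant, EXLA3 read 5.90, 5.84 and 5.61 in complete medium. It read 10.24, 10.22 and 9.998 without Pi, where the lowest mutant array lay just above the highest WT array, 9.94. This difference between the genotypes did not pass its test, given below. After resupply EXLA3 in the mutant was down to 5.46, 5.89 and 5.73, within reach of the mutant's own complete-medium arrays. In order of the group means, starved mutant (10.15) and starved WT (9.73) came first, then resupplied WT (8.84). WT complete (6.05), mutant complete (5.79) and resupplied mutant (5.69) formed the low end, where neighbouring groups overlapped.

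EXPA8 showed the opposite starvation pattern and a different recovery. In complete WT it read 8.36, 8.59 and 8.75. Starved WT arrays read 6.04, 6.24 and 5.72, and resupplied ones 6.04, 6.06 and 5.92. Resupplied and starved WT arrays overlapped completely, far below the complete ones. In the complete mutant EXPA8 read 7.18, 7.97 and 7.90. Starved mutant arrays read 6.04, 5.67 and 5.78, and resupplied ones 5.93, 6.56 and 6.37. Mutant replicate 1 in complete medium lay apart from the other two. In order of the means, WT complete (8.57) and mutant complete (7.68) stood above the rest and did not overlap with each other. Resupplied mutant (6.29), resupplied WT (6.01), starved WT (5.998) and starved mutant (5.83) followed, and each of these overlapped with its neighbour.

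**Figure D1:**
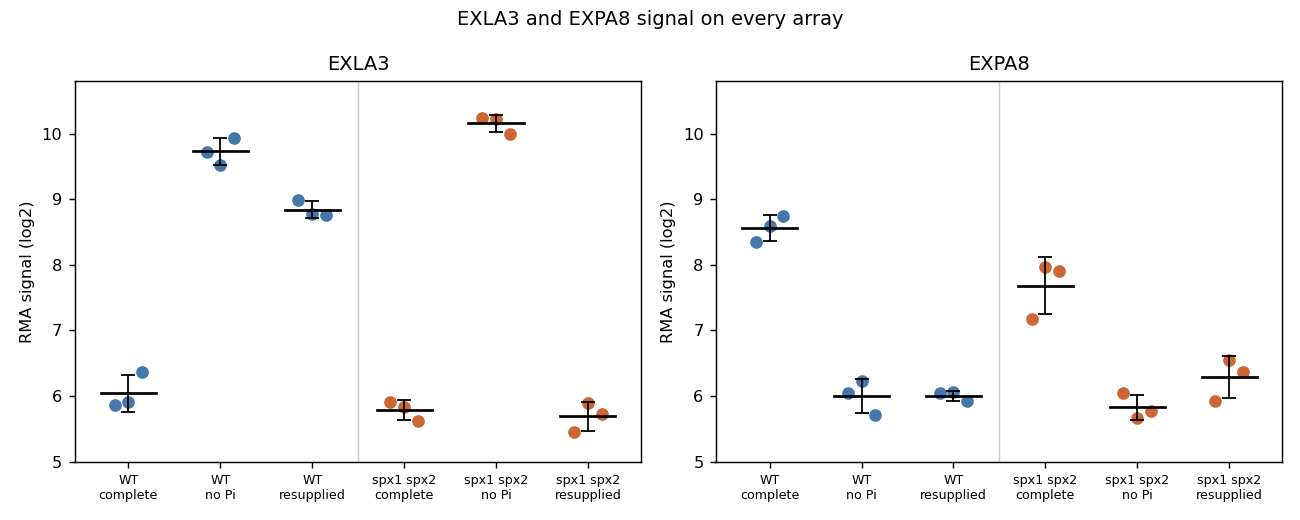
RMA signal (log2) of EXLA3 (left) and EXPA8 (right) on each of the 18 arrays, by genotype (blue WT, orange spx1 spx2) and medium; points are arrays, lines are means of 3 and bars are SD. EXLA3 after resupply lies near 8.84 in WT and near 5.69 in the mutant, while EXPA8 after resupply stays near 6 in both.

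Starvation chose both genes, so this step is a description. EXLA3 was higher without Pi by 3.68 on the log2 scale in WT (12.8-fold) and by 4.37 in the mutant (20.6-fold). EXPA8 was lower without Pi, with differences of -2.57 in WT (5.93-fold) and -1.86 in the mutant (3.62-fold). Over all 22746 probe sets, limma called 20.4% higher and 28.1% lower in WT, and 17.7% higher and 26.3% lower in the mutant. Samples were seedlings with all their tissues mixed, so fewer cells of a type and less RNA per cell cannot be told apart.

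The comparison of resupplied with starved seedlings asks how far each gene had turned back at 4 h, the only time measured. No group is labelled as starved seedlings moved to fresh medium lacking Pi. The return of Pi and the transfer itself therefore cannot be told apart. EXLA3 fell in both genotypes, but by very different amounts. Intervals given here are not adjusted for the number of probe sets, while p-values are. In WT it fell by 0.89 on the log2 scale (SE 0.15, 1.85-fold, limma adjusted p = 8.83e-05, n = 3 arrays per group). In the mutant it fell by 4.46 (SE 0.15, 22.0-fold, limma adjusted p = 1.41e-13), which was rank 13 among all falls. Of the starvation rise, 75.9% on the log2 scale was still present in resupplied WT, against -2.17% in the resupplied mutant. EXPA8 did not pass in either genotype. Its difference was 0.01 in WT (SE 0.20, 95% interval -0.40 to 0.42, limma adjusted p = 0.983) and 0.46 in the mutant (SE 0.20, interval 0.05 to 0.87, limma adjusted p = 0.0674). The mutant value passed without resupplied replicate 1 (0.63, limma adjusted p = 0.0185), without starved replicate 1 (0.56, limma adjusted p = 0.0467) and without the 3 arrays of low spike-in (0.56, limma adjusted p = 0.034). Of the starvation fall of EXPA8, 99.7% remained in resupplied WT and 75.3% in the resupplied mutant. So 1 of the 2 genes was called lower in each genotype, where 19.0% of probe sets were lower in WT and 19.3% in the mutant, and 18.4% and 23.5% were higher. These comparisons use the same starved arrays as the values that chose the genes.

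The difference between the genotypes in the resupply response was tested directly as an interaction. For EXLA3 the resupply change was more negative in the mutant by 3.58 on the log2 scale (estimate -3.58, SE 0.21, 95% interval -4.02 to -3.13, limma adjusted p = 4.54e-09). It was the rank 5 negative interaction among 22746 probe sets. For EXPA8 the estimate was 0.45 (SE 0.28, interval -0.13 to 1.03, limma adjusted p = 0.349). Across all probe sets, 6.15% had a positive and 5.44% a negative interaction that passed. Without the 3 arrays of low spike-in the EXLA3 estimate was -3.53 (limma adjusted p = 4.05e-08). The starved arrays of both genotypes enter this test, and their values were also used to choose the genes, so it is not independent of the choice.

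After resupply the mutant was compared with WT on arrays outside the starvation comparison that chose the genes. The genes and tests were still chosen with earlier results of these data known, so full independence is not claimed. EXLA3 was 8.87-fold lower in the mutant (-3.15 on the log2 scale, SE 0.15, interval -3.46 to -2.84, limma adjusted p = 3.94e-11, n = 3 arrays per group). It ranked 10 among all 22746 probe sets for lower signal in the mutant, and its highest mutant array, 5.89, lay far below the lowest WT array, 8.76. EXPA8 differed by 0.28 (SE 0.20, interval -0.13 to 0.69, limma adjusted p = 0.34) and its arrays overlapped. At this step 11.4% of probe sets were higher and 11.7% lower in the mutant. The WT resupplied arrays are those with the lowest dap signal of the 15, and the part of this in the difference was not tested. Leaving out any 1 array of the comparison gave EXLA3 values from -3.25 to -3.03.

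In complete medium the difference lay in EXPA8. It was 1.84-fold lower in the mutant than in WT (-0.88 on the log2 scale, SE 0.20, interval -1.29 to -0.47, limma adjusted p = 0.00343), and no mutant array reached the lowest WT array. Without mutant replicate 1 the value was -0.63 (limma adjusted p = 0.0287). Without the 3 arrays of low spike-in it was -0.93 (limma adjusted p = 0.00975). EXLA3 differed by -0.26 (SE 0.15, interval -0.57 to 0.05, limma adjusted p = 0.246). Of all probe sets 10.1% were higher and 8.15% lower in the mutant. Of those called, 55.3% were higher, and 41.7% with each array centred on its median. EXPA8 remained lower under both scalings. The complete-medium arrays are 1 arm of the starvation values that chose the genes, so this test is not independent of the choice.

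Without Pi neither gene passed between the genotypes, where few probe sets did, 0.339% higher and 0.492% lower in the mutant. Of those called, 40.7% were higher, and 62.8% with each array centred. EXLA3 read higher in the mutant by 0.43 (SE 0.15, interval 0.11 to 0.74, limma adjusted p = 0.197). EXPA8 differed by -0.17 (SE 0.20, interval -0.58 to 0.24, limma adjusted p = 0.748). The starved arrays are the other arm of the values that chose the genes.

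Resupplied seedlings were also set against seedlings that were never starved. In WT EXLA3 was still 6.94-fold higher (2.80 on the log2 scale, SE 0.15, limma adjusted p = 2.57e-11) and EXPA8 still 5.90-fold lower (-2.56, SE 0.20, limma adjusted p = 2.68e-09). In the mutant EXPA8 was 2.64-fold lower (-1.40, SE 0.20, limma adjusted p = 1.1e-05), while EXLA3 differed by -0.09 (SE 0.15, interval -0.41 to 0.22, limma adjusted p = 0.662). Resupplied WT arrays thus stood apart from complete WT for both genes, and resupplied mutant arrays for EXPA8. In WT 23.8% of probe sets were higher and 30.4% lower than in complete medium. In the mutant the shares were 20.5% and 21.4%. These comparisons use the same complete-medium arrays as the values that chose the genes.

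**Figure D2:**
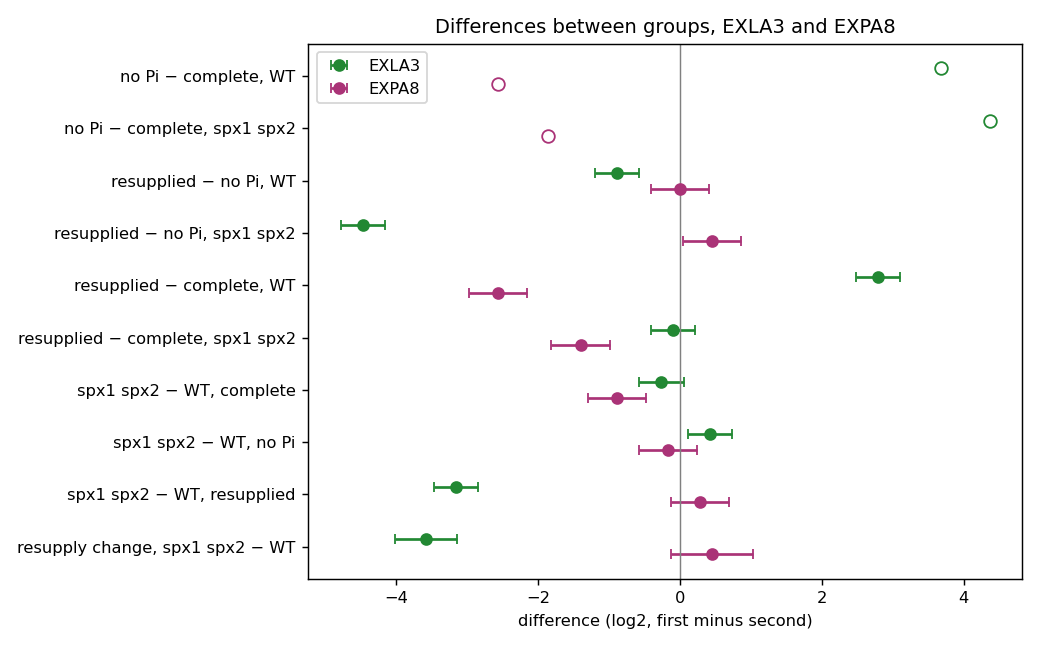
Differences between group means (log2, x axis) for EXLA3 (green) and EXPA8 (purple); filled points carry 95% intervals from the limma fit, and open points are the starvation differences, which chose the genes and were not tested. EXLA3 after resupply lies at -3.15 between the genotypes, and EXPA8 in complete medium at -0.88.

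The closest relatives of EXLA3 are EXLA1 (AT3G45970), its neighbour in the RefSeq gene order, and EXLA2 (AT4G38400). EXLA1 read 9.85, 10.48 and 9.96 in complete WT, 11.39, 10.86 and 11.26 in starved WT, and 10.07, 9.69 and 9.78 in resupplied WT. In the mutant it read 9.73, 9.90 and 10.18, then 11.59, 11.52 and 11.41, and after resupply 8.70, 8.65 and 8.74. The resupplied mutant arrays lay below every other array for this gene, complete medium included. EXLA1 rose on starvation in WT (1.07, SE 0.16) and in the mutant (1.57, SE 0.16), then fell on resupply in WT (-1.32) and in the mutant (-2.81). Its resupply interaction was -1.50 (SE 0.23, limma adjusted p = 0.000325), and after resupply it was lower in the mutant than in WT (-1.16, SE 0.16, limma adjusted p = 5.87e-05).

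EXLA2 rose on starvation as well, by 0.77 (SE 0.11) in WT and 1.58 (SE 0.11) in the mutant. It was higher in the mutant without Pi (0.55, SE 0.11, limma adjusted p = 0.0172), a call lost without WT replicate 2 (0.46, limma adjusted p = 0.155) and without mutant replicate 1 (0.56, limma adjusted p = 0.053) or 2 (0.55, limma adjusted p = 0.0799). Its resupply interaction was -0.66 (SE 0.15, limma adjusted p = 0.00777). After resupply its genotype difference was -0.11 (SE 0.11, limma adjusted p = 0.521). Unlike EXLA3, neither EXLA1 (-0.25, limma adjusted p = 0.208) nor EXLA2 (-0.42, limma adjusted p = 0.00272, lower) was above complete medium in resupplied WT. The difference between the 3 genes was not tested. Whether the EXLA3 probes also bind EXLA1 or EXLA2 transcripts was not tested, since probe sequences were not used here.

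EXLB1 (AT4G17030), the expansin-like B gene, was also high without Pi. It read 8.13, 8.01 and 8.37 in complete WT and 11.12, 11.13 and 11.11 in starved WT. In resupplied WT it read 10.03, 10.15 and 9.95. It rose by 2.95 (SE 0.15) on starvation in WT and by 3.76 (SE 0.15) in the mutant. In the mutant, however, it was 10.51, 11.03 and 10.72 after resupply, above every resupplied WT array. The genotype difference after resupply was 0.71 (SE 0.15, limma adjusted p = 0.00179), in the opposite direction to EXLA3, and the resupply interaction was 0.27 (SE 0.21, limma adjusted p = 0.492). Resupplied seedlings kept 63.5% of the EXLB1 rise in WT and 78.4% in the mutant.

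**Figure D3:**
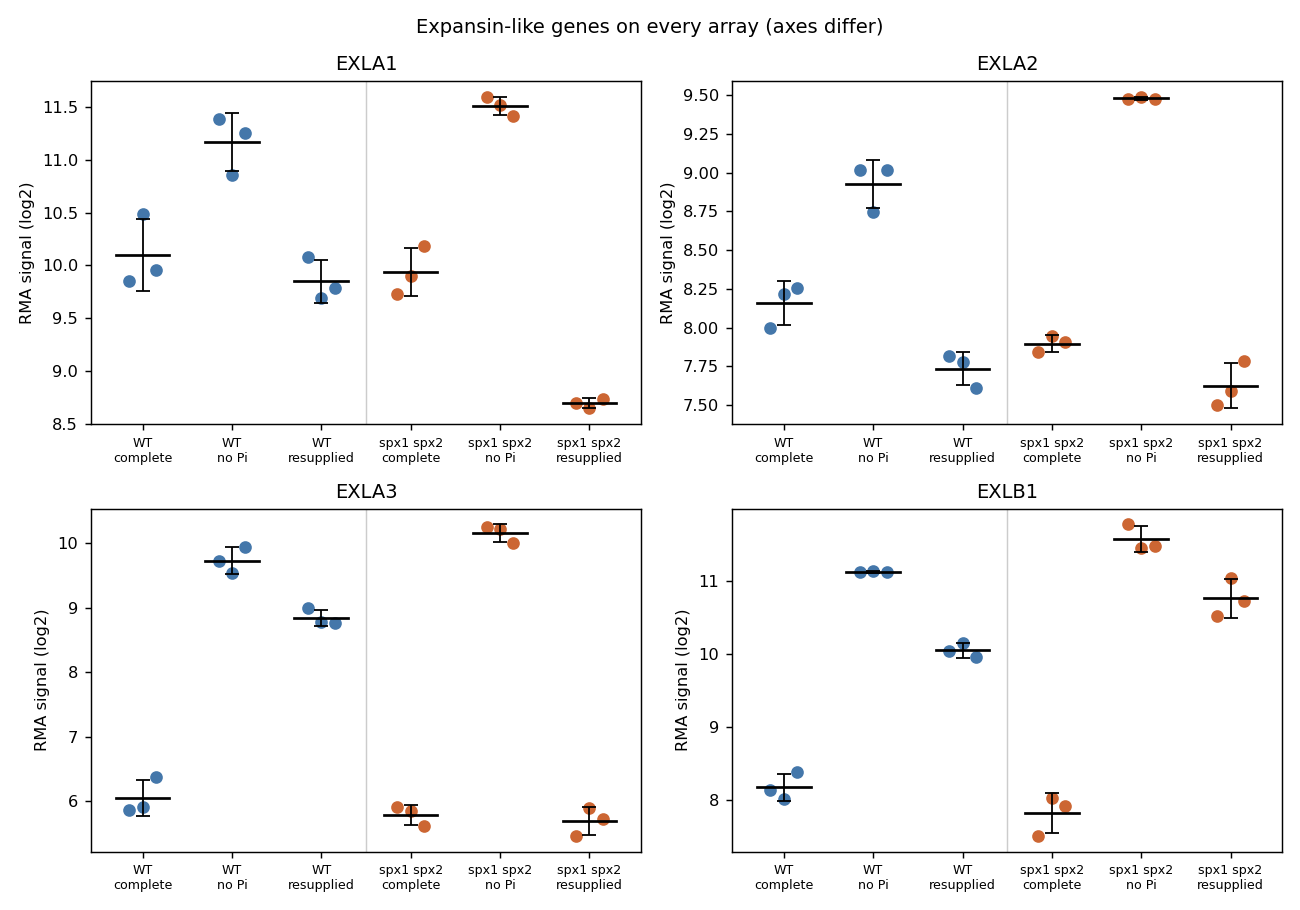
RMA signal (log2) of the 4 expansin-like genes on each array, by genotype and medium; points are arrays, lines are means of 3, bars are SD, and the vertical axes differ between panels. After resupply EXLA3 lies near 8.84 in WT and 5.69 in the mutant, EXLA1 is lower in the mutant, and EXLB1 is higher there.

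Across the superfamily, 18 of 35 genes have a singly named probe set, which leaves 16 besides EXLA3 and EXPA8. Probe sets that name several expansins were left out. EXPA21, EXPA24 and EXPB5 were dim, with group means of 3.31 to 4.02, below the lower quartile of every array (4.40 or more), so a call for them is given without a size. On starvation in WT 9 of the 16 rose and 3 fell, with a median of 0.50 against -0.11 over all probe sets, of which 20.4% rose and 28.1% fell. Besides EXLB1, EXLA1 and EXLA2, the alpha-expansin genes EXPA16 (1.65, SE 0.13) and EXPA9 (1.17, SE 0.13) rose most. EXPA15 (0.37) and the beta-expansin gene EXPB1 (0.63) also rose. Those that fell with EXPA8 were EXPB2 (-0.98, SE 0.18), EXPA4 (-0.70, SE 0.13) and EXPB3 (-0.54, SE 0.11). In the mutant 6 rose and 4 fell, with a median of 0.25 against -0.03 over all probe sets, of which 17.7% rose and 26.3% fell. EXPA4 (-0.89), EXPB2 (-0.76) and EXPB3 (-0.29) fell there too, EXPA15 fell (-0.41), and the dim EXPA21 was called higher. These calls of EXPB3 and EXPA21 were unstable. EXPB3 was called in 5 of 15 alternatives (limma adjusted p up to 0.245) and EXPA21 in 5 of 14 (up to 0.2).

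EXPA7 and EXPA18, alpha-expansin genes of root hairs that act in hair growth, rose on starvation in WT by 1.01 (SE 0.20) and 0.96 (SE 0.22). They were the 2 of 16 root hair markers on the marker list with a named probe set. Their mean signal per array was 6.69 to 7.32 in complete WT, 7.62 to 8.37 in starved WT and 8.43 to 8.58 in resupplied WT. In the mutant it was 7.06 to 7.72, 7.39 to 8.01 and 9.58 to 9.77. The resupplied mutant arrays, where EXLA3 was back at its low level, were thus the highest for the root hair genes. After resupply EXPA7 was higher in the mutant by 1.25 (SE 0.20, limma adjusted p = 0.000224) and EXPA18 by 1.13 (SE 0.22, limma adjusted p = 0.000959). None of the 8 markers fixed for other root tissue or the 11 for green tissue has a singly named probe set. The photosystem II antenna genes LHCB4.1, LHCB4.2 and LHCB4.3, added after values were seen, had mean signals of 11.2 to 12.4 over all arrays, with WT resupplied lowest at 11.22 to 11.24. In the mutant their mean was also lowest after resupply, at 11.58 to 11.81. It was 11.83 to 12.07 in complete medium and 12.11 to 12.17 without Pi. The part of organ composition in the changes of EXLA3 and EXPA8 was not tested, and the arrays do not show in which cells either gene is expressed.

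On resupply in WT 3 of the 16 other expansin genes rose and 5 fell, and in the mutant 7 rose and 6 fell. Over all probe sets 18.4% rose and 19.0% fell in WT, near the share of rises in the family, and 23.5% rose and 19.3% fell in the mutant. The count of rises in WT was 5 with array weights and 5 with the compared groups alone. EXPA16, high without Pi, fell by 2.06 on the log2 scale (SE 0.13) in WT and by 1.34 (SE 0.13) in the mutant. EXPA4, low without Pi, rose by 0.60 (SE 0.13) in WT and by 1.54 (SE 0.13) in the mutant, where EXPA8 did not pass. EXPA15 rose by 0.77 in WT and 1.23 in the mutant. EXPA18 rose in WT (0.71, limma adjusted p = 0.0134), a call lost without starved replicate 2 (0.54, limma adjusted p = 0.0881). EXPB2 stayed near its starved level, with changes of -0.26 (limma adjusted p = 0.295) and -0.20 (limma adjusted p = 0.411). Its means were dim, 4.43 in WT and 4.48 in the mutant when starved, and 4.16 and 4.28 when resupplied. They lay near or below the lower quartile of the arrays (4.40 or more), so a further fall may not show. EXPB3 fell further in WT (-0.47, limma adjusted p = 0.00267) and in the mutant (-0.32, limma adjusted p = 0.0293). The dim EXPB5 was called lower in the mutant (limma adjusted p = 0.042) and EXPA20 (0.41, limma adjusted p = 0.0216) rose there, as did EXPA9 (0.43, limma adjusted p = 0.0091). Leaving out single mutant arrays ended the mutant calls of EXPB3 (limma adjusted p up to 0.155), EXPB5 (up to 0.154), EXPA20 (up to 0.0893) and, without resupplied replicate 2, EXPA9 (0.0648). EXPA21 and EXPA24 did not pass in either genotype.

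Against complete medium, 6 of the 16 were higher and 4 lower in resupplied WT, and 9 were higher and 4 lower in the resupplied mutant. The shares over all probe sets were 23.8% and 30.4% in WT and 20.5% and 21.4% in the mutant. EXLA2, 1 of the 4 lower in the mutant, was called in 2 of 15 alternatives (limma adjusted p up to 0.184). Between genotypes in complete medium, 10.1% of all probe sets were higher and 8.15% lower in the mutant. Of the 16, none was higher and 3 were lower, namely EXPB3 (-0.72, limma adjusted p = 0.00017), EXPA16 (-0.45, limma adjusted p = 0.019) and EXPA4 (-0.39, limma adjusted p = 0.0393). At an unadjusted p under 0.05, 3 were higher and 5 lower, and up to 3 were called higher when an array was left out. EXPB3 alone of these 3 was called when the comparison was fitted on its own groups or without the 3 arrays of low spike-in. Without Pi, 0.339% of all probe sets were higher and 0.492% lower in the mutant. Of the 16, 1 was higher (EXLA2) and 2 were lower, EXPA4 (-0.59, limma adjusted p = 0.0356) and EXPA15 (-0.56, limma adjusted p = 0.017). Both lower calls were lost without WT replicate 1 or 2 or mutant replicate 1 or 2, and that of EXPA15 also without mutant replicate 3 and with each array centred (-0.49, limma adjusted p = 0.0568). That of EXPA4 was also lost with the compared groups alone (limma adjusted p = 0.0724) and without the 3 arrays of low spike-in (-0.48, limma adjusted p = 0.131). After resupply 6 were higher in the mutant and 1, EXLA1, was lower, where 11.4% of all probe sets were higher and 11.7% lower. EXPB3 lay just outside the threshold (-0.32, limma adjusted p = 0.0515) and was called lower in 9 of 15 alternatives, which made 2. The 6 were EXPA7, EXPA18, EXLB1, EXPB1 (0.70), EXPA16 (0.54) and EXPA20 (0.48), of which EXPA20 was lost without resupplied WT replicate 1 or 3 or mutant replicate 2 or 3 (limma adjusted p up to 0.0803). The resupply interaction was positive for 5 (8 with array weights) and negative for 2 (EXLA1 and EXLA2), where 6.15% of all probe sets were positive and 5.44% negative. The genes with a positive interaction were EXPA7 (1.45), EXPA18 (1.26), EXPB1 (1.07), EXPA4 (0.93) and EXPA16 (0.73). The list's median was 0.33 against 0.04 over all probe sets.

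**Figure D4:**
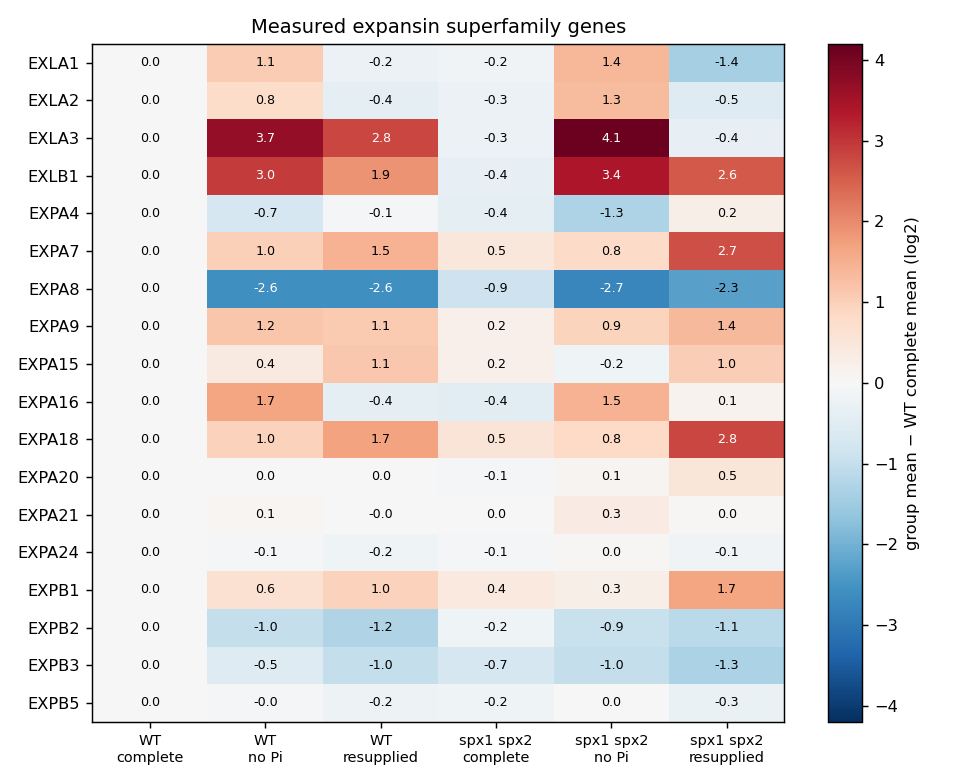
Group means of the 18 measured expansin genes, each minus that gene's mean in complete WT (log2, number and colour; the first column is 0 by construction, n = 3 arrays per group). EXLA3 and EXLB1 are high without Pi in both genotypes, EXPA8 is low, and EXLA3 in the resupplied mutant is back at the level of complete medium.

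Genes with the pattern most like that of either gene were sought by Pearson correlation over the 18 arrays among 13512 other probe sets with 1 named gene. The values are descriptions, and the arrays share media and genotypes. For EXLA3 the 5 highest were AT1G74450 (r = 0.991, Spearman 0.860), AT1G19210 (0.987 and 0.792), AT5G38700 (0.985 and 0.823), AT2G22760 (0.983 and 0.802) and AT1G33760 (0.978 and 0.940). All 5 were high in resupplied WT and low in the resupplied mutant, as with AT1G74450, whose means were 10.45 and 7.91. Over the 6 group means their correlations with EXLA3 ranged from 0.990 to 0.997. Within the superfamily the likest to EXLA3 were EXLA1 (0.783, rank 486) and EXLA2 (0.756, rank 586), and the correlations with EXPA7 and EXPA18 were -0.06 each.

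For EXPA8 the 5 highest were P1R1 (AT5G57780, r = 0.976, Spearman 0.906), AT3G07310 (0.976 and 0.805), AT2G30600 (0.974 and 0.877), AT3G50560 (0.973 and 0.768) and AT5G64380 (0.971 and 0.849). Their means were highest in complete WT, next in the complete mutant and low in the other 4 groups, as with P1R1 (7.97, 7.24 and 4.79 to 5.52). Over the 6 group means their correlations with EXPA8 were 0.980 to 0.996. The likest expansins were EXPB2 (0.860, rank 606) and EXPB3 (0.714, rank 1695). EXLA3 and EXPA8 correlated at -0.70. Both genes were chosen for opposite changes on starvation, and the complete and starved arrays enter this value. Its negative sign is therefore not independent of the choice.

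Other wall genes were read from lists of families that act on the same wall. The XTH family, which cuts and rejoins xyloglucan chains, had 10 of 33 genes with a named probe set. On starvation in WT 5 of the 10 rose and 4 fell, and in the mutant 4 rose and 4 fell. Over all probe sets 20.4% rose and 28.1% fell in WT, and 17.7% and 26.3% in the mutant. XTH19 (3.17, SE 0.12) and XTH18 (2.46, SE 0.17) rose most in WT, with XTH20 at 1.48 (SE 0.20), and XTH33 fell (-1.36, SE 0.14). XTH20 went the other way in the mutant, where it fell (-0.95, SE 0.20) from a level already higher than WT in complete medium (1.86, SE 0.20, limma adjusted p = 1.64e-06). The complete mutant arrays were widely spread for this gene, at 8.93, 8.34 and 7.74 (SD 0.59). The lowest of them lay close to the starved mutant arrays, at 7.195 to 7.585. From starved to resupplied seedlings the XTH20 mean went up, from 7.96 to 9.53 in WT and from 7.39 to 8.17 in the mutant. EXLA3 went down in both. After resupply XTH20 was lower in the mutant than in WT (-1.36, SE 0.20, limma adjusted p = 7.93e-05), a direction shared with EXLA3. Of the 10 XTH genes 3 were higher in the mutant at this step, 1 of them the dim XTH29 (group means of 3.40 to 3.78). Over all probe sets these shares were 11.7% lower and 11.4% higher. Of 10 pectin methylesterase genes on the list, 1 has a singly named probe set, PME61. It rose on starvation in WT (0.81, SE 0.20, limma adjusted p = 0.0027) and its difference was 0.03 in the mutant. The WT arrays of PME61 overlapped, at 5.83 to 6.79 in complete medium and 6.72 to 7.33 without Pi. Of the 10 cellulose synthase and 11 plasma membrane proton pump genes on the lists, none has a singly named probe set.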

How the data were processed

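The authors deposited 1 log2 value per probe set and array, made with RMA (background correction, quantile normalization, probe summary), per the submitters' processing notes. The log base was inferred from the range of values, 2.29 to 14.3. The sources used here give neither software version nor probe set definition. Of 22810 probe sets, 64 controls were left out. Names came from the platform table, matched to RefSeq (TAIR10.1 annotation) by gene identifier for 13436 of 13513 singly named probe sets.

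All 18 arrays were fitted with a mean per group in limma 3.58.1 (R 4.3.3, 12 residual and 6.40 prior degrees of freedom), with Benjamini-Hochberg adjustment over 22746 probe sets, two-sided, at 0.05. The fit was also run on simulated data with independent noise and added changes, for the genotype comparison after resupply only. Those data held no effects shared across an array, such as low spike-in, so such effects were not covered. The genes, lists and tests were chosen with earlier results of these data known. Named genes were the 2 genes, all measured expansins, up to 4 members of other wall lists by their change in starved WT, and the 5 likest genes. Alternatives were centring, quantile normalization, a filter on dim probe sets, other error models, fewer groups, blocks and leaving out arrays.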

Additional observations from a re-analysis of the deposited data

Results flagged for a closer look

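For 8 of the 18 measured expansin genes the change on resupply differed between the genotypes by the limma interaction test (mutant minus WT, log2). Over all probe sets 11.6% passed this test. The starved arrays that enter it were also used to choose EXLA3. The difference was negative for EXLA3 (-3.58), EXLA1 (-1.50) and EXLA2 (-0.66). It was positive for EXPA7 (1.45), EXPA18 (1.26), EXPB1 (1.07), EXPA4 (0.93) and EXPA16 (0.73).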

How the results depend on the processing

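For EXLA3 and EXPA8, 238 of 252 recomputed values kept their direction and their side of the threshold. The calls of EXLA3 on resupply in both genotypes, after resupply between genotypes, against complete medium in WT and for the interaction were kept under every alternative run, and so were those of EXPA8 against complete medium and between genotypes in complete medium. The resupply difference of EXPA8 in WT, near 0, became -0.017 with each array centred and -0.013 with quantile normalization, and was -0.133 to 0.127 when 1 array was left out. In the mutant it passed with array weights (0.59), its own groups alone (0.46), a block for low spike-in (0.57) and without those 3 arrays (0.56), and was 0.32 to 0.63 with 1 array left out. With array weights EXPA8 also passed after resupply between genotypes (0.35) and for the interaction (0.59). EXLA3 in resupplied against complete mutant was -0.193 to 0.022 with 1 array left out. The cause of these changes was not tested.

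Counts of called probe sets moved as follows. Between genotypes in complete medium 4146 became 1525 with these groups alone and 2370 to 4988 with 1 array left out. Without Pi 189 became 667 with array weights, 125 with a replicate block and 49 to 155 with 1 array left out. After resupply 5249 became 9266 with array weights, 8094 with these groups alone and 3311 to 5339 with 1 array left out. For the interaction 2638 became 5843, 4017 and 1692 to 2886. Same-numbered replicates share only a number. Correlations of their deviations ran from -0.45 to 0.23, in 0 of 9 comparisons did every pair exceed 0.1, and 5 of 18 arrays correlated best with their own number. The replicate block changed no call of EXLA3 or EXPA8.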

Other observations

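The genes on either side of EXLA3 and EXPA8 in the RefSeq gene order, looked up after values were seen, gave the following. AT3G45950, on the other side of EXLA3 from EXLA1, had group means of 3.27 to 3.64, below the lower quartile of every array (4.40 or more), and passed in none of the comparisons, with an unsigned difference of at most 0.25. Beside EXPA8, AT2G40600 fell on starvation in WT (-0.51, SE 0.11, limma adjusted p = 0.000583) and fell again on resupply (-0.49). The other neighbour, AT2G40620 (bZIP18), a transcription factor gene, rose on starvation in WT (0.42, SE 0.10, limma adjusted p = 0.00225).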
